A study of Mus musculus with 2 samples.

Results

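Mir320, Mir484, Mir877, Mir1224 and Mir702 are mouse microRNA (miRNA) genes whose precursors are described as bypassing Drosha, the nuclear enzyme that releases most miRNA hairpins. They were chosen by gene symbol, as 2 capped short hairpins (Mir320 and Mir484) and 3 mirtrons (Mir877, Mir1224 and Mir702), and they are 5 of the 2202 miRNA genes in the deposited tables. Small RNA libraries, with a size range below 30 in the labels, were made from total RNA. The tissue was adrenal gland of female B6CASTF1/J mice aged 18 to 20 months. These mice are hybrids of the strains C57BL/6J and CAST/EiJ. The samples form 1 group of 2 biological replicates, distinct tissue samples under the same donor record. Every SD and p-value therefore concerns these 2 libraries alone. The p-values set their difference against counting error and do not measure spread between replicates. There was no second age, sex, strain, genotype or treatment among them, so the values are levels and differences between replicates.

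Most miRNAs are cut from a long transcript by the Microprocessor, formed by Drosha and its partner Dgcr8, before Dicer in the cytoplasm trims the hairpin to a duplex of short arms. A capped short hairpin skips the first cut because RNA polymerase II starts and stops at the hairpin itself, so that the precursor carries a 5′ cap. A mirtron skips it because the hairpin is a whole short intron, freed by the spliceosome and opened by the debranching enzyme, and it therefore begins with the splice donor and ends with the acceptor. Caps, splicing and Drosha activity were not measured here. The counts belong to hairpin genes and do not separate the arms.

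The hairpins of the mirtrons are shown first, since the intron ends define the class. The hairpins of Mir877 and Mir1224 end where the intron does, and that of Mir702 is offset at both ends, as given below. In Mir877 and Mir1224 capitals mark the first 2 and last 2 bases of the intron. In Mir702 they mark the first 2, since the last 2 lie beyond the hairpin, and in Mir484 they mark the mature miRNA. Sequences are from RefSeq (GRCm38.p6), 5′ to 3′, and matched 4 of the 5 genes, leaving out Mir320.
Mir877: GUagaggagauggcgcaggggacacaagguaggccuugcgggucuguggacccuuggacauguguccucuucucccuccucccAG
Mir1224: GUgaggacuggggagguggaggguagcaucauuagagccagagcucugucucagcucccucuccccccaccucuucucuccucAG
Mir702: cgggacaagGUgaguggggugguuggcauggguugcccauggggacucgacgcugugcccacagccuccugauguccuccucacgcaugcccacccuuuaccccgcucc
Mir484: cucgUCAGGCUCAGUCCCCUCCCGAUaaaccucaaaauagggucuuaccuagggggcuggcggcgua

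Positions are on mm10 with GENCODE M21. Mir877 (ENSMUSG00000077931.1, chromosome 17, 35960730 to 35960814, minus strand) coincided base for base with an 85-base intron of Abcf1, an ATP-binding cassette gene with a role in translation. Mir1224 (ENSMUSG00000080669.1, chromosome 16, 20604452 to 20604536, plus strand) coincided in the same way with an 85-base intron of Vwa5b2. Mir702 (ENSMUSG00000076240.1, chromosome 5, 136991433 to 136991541, plus strand) began 9 bases inside the upstream exon and ended 2 bases before the end of a 102-base intron of Plod3, which encodes a lysyl hydroxylase of collagen. The labels of all 3 mirtrons thus matched the annotation, taken as both hairpin ends within 10 bases of the ends of a single intron of at most 200 bases.

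The capped hairpins lay in no annotated gene on their strand. Mir320 (ENSMUSG00000065528.1, chromosome 14, 70443510 to 70443591, plus strand) started 63 bases from the annotated start of Polr3d, a subunit gene of RNA polymerase III that runs the other way. Mir484 (ENSMUSG00000070074.1, chromosome 16, 14159626 to 14159692, plus strand) started 359 bases from the start of Marf1 on the other strand and 3649 bases upstream of the start of Nde1, a gene of centrosome function, on its own strand. In the hairpin of Mir484, 4 bases precede the mature miRNA, as the capitals above show.

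**Figure D1:**
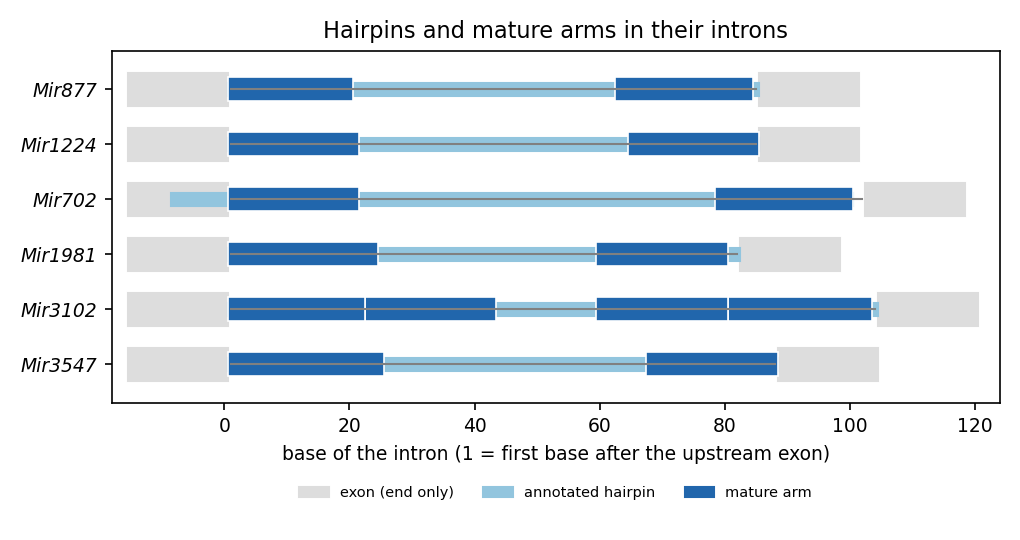
Hairpins (light blue) and mature arms (dark blue) of 6 mirtrons drawn to scale along their introns, with the x axis counting bases from the first base of the intron and grey blocks standing for the ends of the flanking exons. The 5′ arms of Mir877, Mir1224 and Mir702 all begin at base 1, and the hairpin of Mir702 reaches 9 bases into the upstream exon.

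The mature arms are shown with the seed, bases 2 to 8 that pair with targets, in capitals, to show the bases at the intron ends and the seeds that are compared between arms.
mmu-miR-484: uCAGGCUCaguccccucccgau
mmu-miR-877-5p: gUAGAGGAgauggcgcaggg
mmu-miR-877-3p: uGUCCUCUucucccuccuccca
mmu-miR-1224-5p: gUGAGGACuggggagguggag
mmu-miR-1224-3p: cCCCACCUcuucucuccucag
mmu-miR-702-5p: gUGAGUGGggugguuggcaug
mmu-miR-702-3p: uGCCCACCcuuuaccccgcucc
mmu-miR-3102-5p: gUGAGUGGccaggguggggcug

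The 5′ arm of each of the 3 mirtrons began exactly at the first intron base, so its seed starts with the second base of the splice donor. These arms all open with GU, as 3.57% of the 1738 mature sequences in the RefSeq table do. The 3′ arms ended 1 base (Mir877), 0 bases (Mir1224) and 2 bases (Mir702) before the end of the intron. Their sequence is that of the pyrimidine-rich end of an intron. C and U made up 90.9% of miR-877-3p, 85.7% of miR-1224-3p and 81.8% of miR-702-3p, against a median of 50% over all mature sequences. The 5′ arms had the opposite make-up, with 20% C and U in miR-877-5p, 19.0% in miR-1224-5p and 33.3% in miR-702-5p.

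No arm of Mir484, Mir877, Mir1224 or Mir702 shared 18 bases with another hairpin of the table. Mir320 had no entry there, so whether it shares sequence with other hairpins was not tested. The seed of miR-702-5p was also that of miR-3102-5p, the 5′ arm of Mir3102 (chromosome 7, 100882306 to 100882409, minus strand), another mirtron, whose hairpin is a 104-base intron of Arhgef17. The other 6 arms of these genes shared their seed with no other entry of the table, which is not complete.

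Hairpins of these genes were richer in GC than most. GC content was 58.2% in Mir484, 61.2% in Mir877, 60% in Mir1224 and 65.1% in Mir702, where the median of 1005 RefSeq hairpins was 51.7%. Predicted minimum free energy per base, which falls as a fold becomes more stable, was -0.367 kcal/mol in Mir484, -0.429 in Mir877, -0.504 in Mir1224 and -0.435 in Mir702, against a median of -0.406. Of all hairpins, 66.0% were more stable per base than Mir484 and 15.3% were more stable than Mir1224. Each of the 4 folded into a single stem with 1 terminal loop, of 6 bases in Mir484 and 4 bases in the mirtrons.

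**Figure D2:**
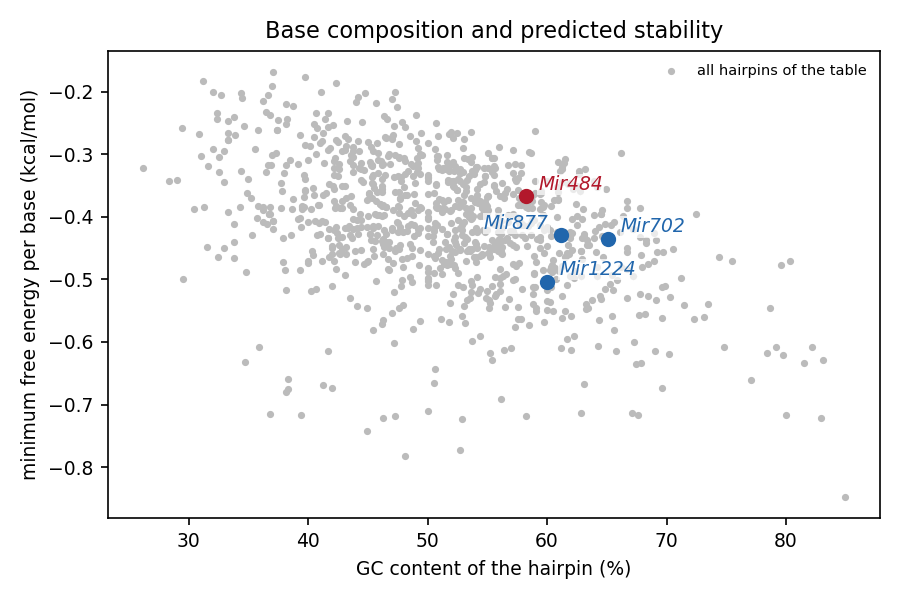
GC content (x axis, %) against predicted minimum free energy per base (y axis, kcal/mol) for 1005 RefSeq hairpins in grey, with Mir484 in red and the mirtrons in blue. The 4 coloured hairpins lie between 58.2% and 65.1% GC, and Mir1224 has the lowest energy per base among them.

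Of the 5 genes, the capped hairpins were far more abundant than the mirtrons. Own-strand counts over all miRNA genes totalled 2590051 in replicate 1 and 2291030 in replicate 2, and CPM are counts per 1000000 of these totals. A read was taken as 1 mature miRNA. The arms of these genes listed above, which include none of Mir320, are 20 to 22 bases long. CPM were therefore compared between genes without a correction for length. How evenly different miRNAs enter a library was not measured, so ratios between genes are ratios of reads. Mir320 and Mir484 summed to 6690 CPM in replicate 1 and 8586 CPM in replicate 2, a mean of 7638 ± 1341 CPM (SD, n = 2). The 3 mirtrons summed to 161.0 and 163.7 CPM, a mean of 162.3 ± 1.90 CPM (SD, n = 2). All 29 genes that met the intron rule above, these 3 included, summed to 1069 CPM in replicate 1 and 1333 CPM in replicate 2. A ratio of capped hairpins to mirtrons is therefore much smaller over all 29 than over the chosen 3. Within a library, capped counts were 41.6 times those of the chosen 3 in replicate 1 (exact 95% interval 37.7 to 45.9). In replicate 2 they were 52.5 times those of the chosen 3 (47.4 to 58.3). These intervals, and the Wilson 95% intervals of CPM given with single genes, come from 1 library each and hold counting error alone. Copies made by PCR were not collapsed to molecules, so the intervals may be too narrow even for that. All 5 genes together held 0.780% ± 0.134 of counts (SD, n = 2).

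Mir320, described in human cells as acting on the promoter of the neighbouring POLR3D gene, was the highest of the 5. It had 14186 counts in replicate 1, or 5477 CPM (Wilson 95% interval 5388 to 5568). In replicate 2 it had 16331 counts, or 7128 CPM (7020.1 to 7238). Its mean was 6303 ± 1168 CPM (SD, n = 2), and it ranked 31 and 29 among the 2202 genes. The gene alone made up 79.9% and 81.5% of the reads of the 5.

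Mir484, whose product is known as a regulator of mitochondrial fission, was next. It had 3141 counts and 1213 CPM (1171 to 1256) in replicate 1. Replicate 2 had 3339 counts and 1457 CPM (1409 to 1508). The mean of 1335 ± 173 CPM (SD, n = 2) placed it at rank 70. Mir320 exceeded Mir484 by a factor of 4.52 (4.34 to 4.70) in replicate 1 and 4.89 (4.71 to 5.08) in replicate 2, so their proportion was close in both libraries while both intervals stayed apart.

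Mir877 was the most abundant mirtron of the 3. It had 336 counts, or 129.7 CPM (116.6 to 144.4), in replicate 1 and 253 counts, or 110.4 CPM (97.6 to 124.9), in replicate 2. Its mean was 120.1 ± 13.6 CPM (SD, n = 2), near the median of 133.8 CPM over the 339 genes with at least 10 counts in each library. Mir484 exceeded it 9.35-fold in replicate 1 and 13.2-fold in replicate 2.

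Mir702 had 69 counts, or 26.6 CPM (21.1 to 33.7), in replicate 1. In replicate 2 it had 108 counts, or 47.1 CPM (39.0 to 56.9). The mean was 36.9 ± 14.5 CPM (SD, n = 2), the widest spread of the 5 relative to its level. The ratio of Mir877 to Mir702 reads was 4.87 (3.75 to 6.40) in replicate 1 and 2.34 (1.86 to 2.96) in replicate 2, intervals that do not overlap and need no scaling between libraries.

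Mir1224 was barely above the detection limit of 10 counts in each library. It had 12 counts, or 4.63 CPM (2.65 to 8.10), in replicate 1 and 14 counts, or 6.11 CPM (3.64 to 10.3), in replicate 2. The mean was 5.37 ± 1.04 CPM (SD, n = 2), at rank 350. Mir702 exceeded it 5.75-fold (3.09 to 11.7) and 7.71-fold (4.40 to 14.6).

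The order Mir320, Mir484, Mir877, Mir702, Mir1224 was the same in both libraries. At every step the lower of the 2 values of one gene lay above the higher value of the next, so no neighbours in the order overlapped. The 5 genes were chosen with earlier results of these data known, so their share detected is not a result about the group. All 5 were among the 339 detected, where 15.4% of the 2202 genes were. Their median level was 120.1 CPM, and that of all detected genes 133.8 CPM. None of the 5 had a count on the opposite strand in either library, which allows up to 1.16 CPM in replicate 1 and 1.31 CPM in replicate 2 at 3 counts.

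**Figure D3:**
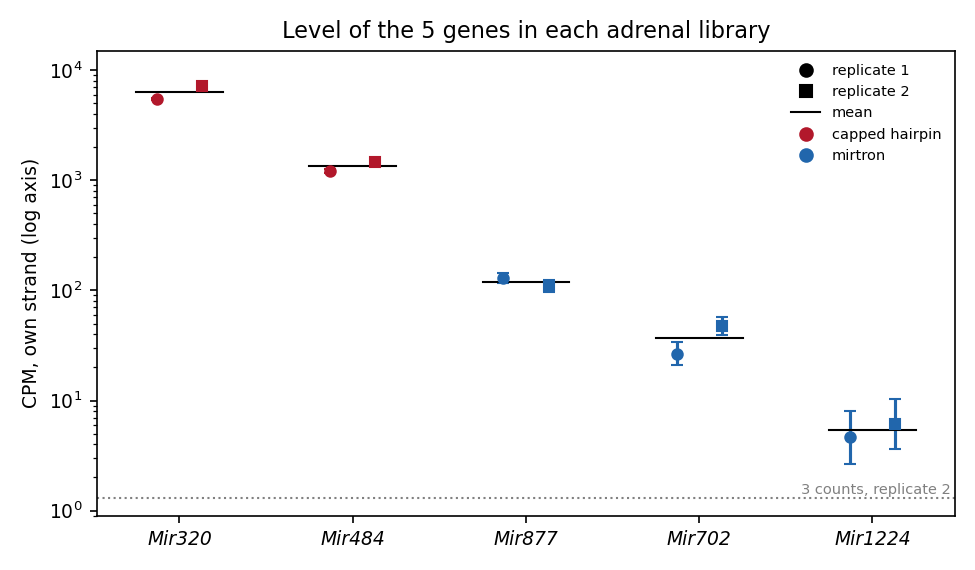
CPM on the own strand (log axis) of the 5 genes in replicate 1 (circles) and replicate 2 (squares), with Wilson 95% intervals and the mean as a black line. The capped hairpins (red) lie between 1213 and 7128 CPM and the mirtrons (blue) between 4.63 and 129.7 CPM.

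Between the libraries, Mir320, Mir484 and Mir702 were higher in replicate 2, and Mir877 and Mir1224 did not pass the test. The raw counts were compared by an exact binomial test (two-sided, conditional on each gene's sum) with edgeR's TMM scaling, with p-values adjusted by Benjamini-Hochberg over 367 genes with a summed count of at least 20. It compares these 2 libraries, not conditions, and its only spread is counting error. Of the 5 genes, 3 were called at an adjusted p of 0.05, all higher in replicate 2. Over all tested genes, 62.7% were called, 30.2% higher in replicate 2 and 32.4% higher in replicate 1, so a count of 3 in 5 is near the background.

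Mir320 had a log2 ratio of replicate 2 over replicate 1 of 0.42 (95% interval 0.39 to 0.45, adjusted p = 9.6e-140, exact test). Mir484 had a log2 ratio of 0.30 (0.23 to 0.37, adjusted p = 1.2e-16, exact test). Both capped hairpins thus differed by less than the median absolute log2 ratio of all tested genes, 0.46.

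The mirtrons were spread around the capped hairpins. Mir702 had the largest log2 ratio of the 5, at 0.86 (0.41 to 1.32, adjusted p = 2.3e-04, exact test), and 25.6% of tested genes had a larger absolute value. Mir877 had a log2 ratio of -0.19 (-0.44 to 0.04, adjusted p = 0.155, exact test). With DESeq2 size factors in place of TMM it passed, at -0.29 (adjusted p = 0.0285, exact test). Mir1224 had a log2 ratio of 0.43 with an interval from -0.78 to 1.68 (adjusted p = 0.636, exact test), and a difference of 2-fold in favour of replicate 2, which lies inside it, could not have been told from none at this depth.

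All 5 genes lay within 2-fold between the libraries, as did 298 of the 367 tested genes. The median log2 ratio was 0.42 over the 5 and 0.02 over all tested genes. Relative to the median of all tested genes, which removes the choice of scaling, the log2 ratios were 0.40 for Mir320, 0.29 for Mir484, -0.21 for Mir877, 0.41 for Mir1224 and 0.84 for Mir702. With TMM factors computed from all genes, a setting added after seeing the data, the median of tested genes moved to -0.12 and the calls over all genes to 85 higher in replicate 2 and 139 higher in replicate 1, from 111 and 119.

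**Figure D4:**
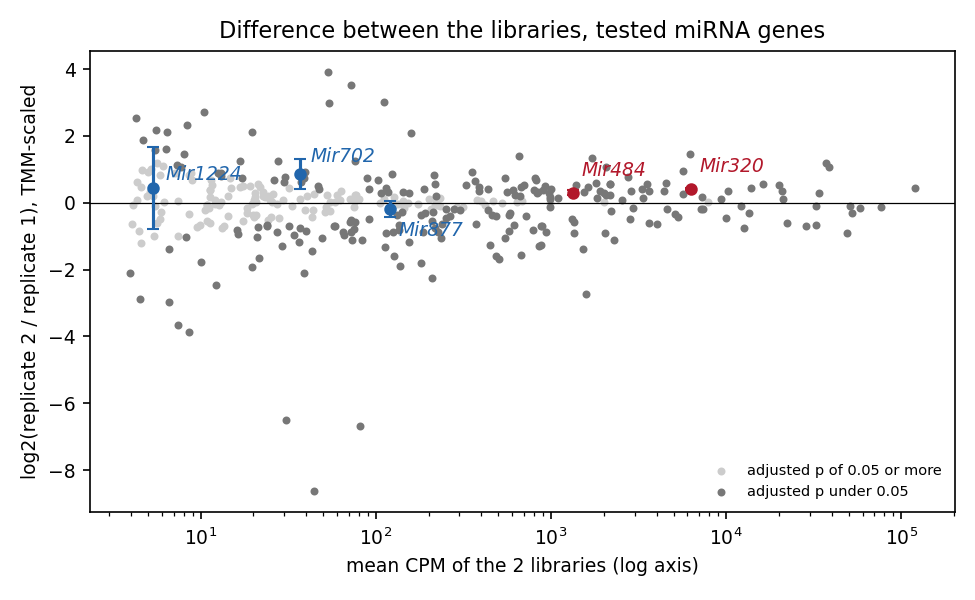
Log2 ratio of replicate 2 over replicate 1 (y axis, TMM-scaled) against mean CPM (log x axis) for the 367 tested genes, dark grey where the adjusted p was under 0.05, with the capped hairpins in red and the mirtrons in blue and bars for exact 95% intervals. Mir702 lies highest of the 5 at 0.86, and the interval of Mir1224 spans 0.

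Markers of other cell types also differed between the libraries, and their part in these ratios was not tested. No listed marker is specific to the adrenal cortex, and the endocrine Mir375 was at 62443 and 54040.3 CPM in replicates 1 and 2. The endothelial Mir126a was at 64752 and 33412 CPM. The striated muscle list summed to 598 and 81.2 CPM, with 1 of 9 members detected in both libraries. That member was Mir206, with 737 counts in replicate 1 and 182 in replicate 2. Mir499 had 420 and 3 counts, Mir208a 231 and 0 and Mir208b 157 and 1, so these were counted almost only in replicate 1. Mir1a-1, Mir133a-1, Mir133a-2 and Mir133b were at 0. Reads aligned to several places entered no gene count, and shared sequence among the muscle genes was not tested. A count of 0 at numbered copies such as Mir133a-1 and Mir133a-2 thus does not show absence. Epithelial markers summed to 1191 and 1867 CPM (3 of 6 detected), erythroid markers to 831 and 409 CPM (2 of 2) and leukocyte markers to 1063 and 1079 CPM (3 of 3). Mir203, at 1147 and 1618 CPM, made up most of the epithelial sums. Mir200c had 65 and 452 counts, Mir200b 19 and 73 and Mir141 6 and 24, while Mir429 went the other way, with 19 and 8. Mir200a had a mean of 3.83 CPM. The liver miRNA Mir122 was at 622 and 702 CPM. In bulk tissue, fewer cells of a type and less RNA per cell cannot be told apart.

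Of the other mirtrons, Mir1981 and Mir3102 were present at levels above those of the 3 chosen ones. The geometry used above held for 29 genes of the tables, 26 of them outside the chosen set. Of these 26, 4 were detected, which is 15.4%, beside 15.7% of genes with neither kind of intron match, and 6 had no read in either library. Mir1981, an 82-base intron of Marc2 on chromosome 1 (184822407 to 184822488, minus strand), had 1379 and 1560 counts, or 606.7 ± 105.0 CPM (SD, n = 2). Mir3102, which shares the seed of miR-702-5p, had 860 and 1021 counts, or 388.8 ± 80.3 CPM (SD, n = 2). Both thus lay above Mir877 and below Mir484 in each library. Mir3547, an 88-base intron of Baiap3 on chromosome 17, had 61 and 41 counts, or 20.7 ± 4.00 CPM (SD, n = 2), between Mir702 and Mir1224 in each library, with an interval in replicate 1 that overlaps that of Mir702. The remaining one is Mir7080, at 10 and 12 counts, which is named because of its values.

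**Figure D5:**
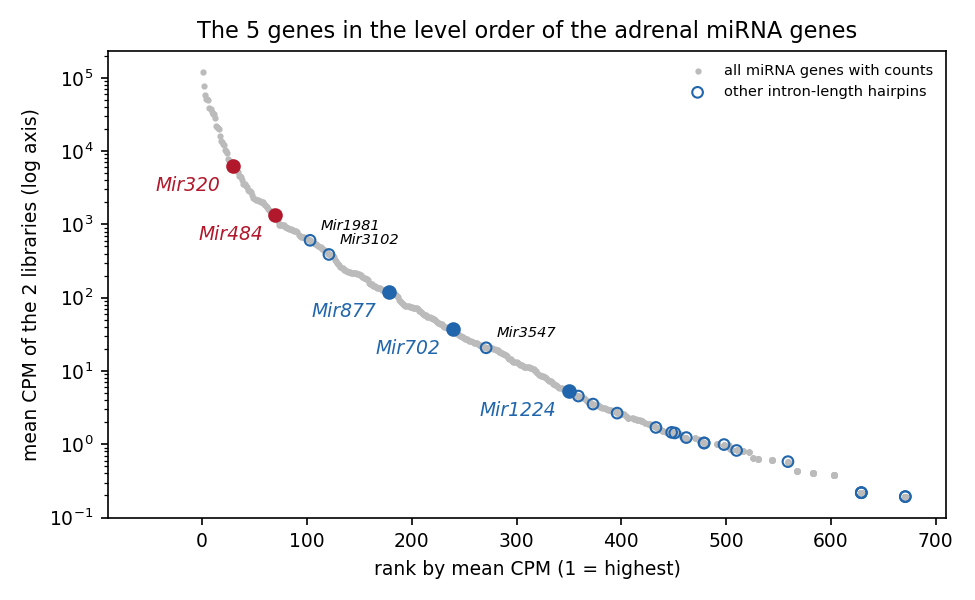
Mean CPM (log axis) against rank for all miRNA genes with counts (grey), with the capped hairpins in red, the 3 mirtrons in blue and other intron-length hairpins as open circles. Mir320 stands at rank 29 and Mir1224 at rank 350, and Mir1981 and Mir3102 stand between Mir484 and Mir877.

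Mir1981 and Mir3102 had log2 ratios of 0.39 (0.29 to 0.50, adjusted p = 6.1e-13) and 0.46 (0.33 to 0.59, adjusted p = 1.3e-11) in the exact test, both higher in replicate 2. The ratio of Mir3547 was -0.35 on the log2 scale (-0.97 to 0.24) and missed the threshold (adjusted p = 0.302, exact test). The 5′ arms of the chosen 3 all began at the first intron base. So did a 5′ arm of each of the 4 other detected mirtrons, Mir1981, Mir3102, Mir3547 and Mir7080. Over all other mirtrons, detected or not, the position varied. Of 23 5′ arms with a RefSeq entry in the 26 other mirtrons, 15 began at that base and 8 did not, and 14 opened with GU. Of 21 3′ arms, 18 ended within 2 bases of the intron end, and the median share of C and U was 73.9% in these and 27.3% in the 5′ arms.

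Other miRNA genes described as non-canonical were not uniform. The snoRNA-like Mir1839 was at 1225 CPM in replicate 1 and 489 CPM in replicate 2, a log2 ratio of -1.29 (-1.39 to -1.19, adjusted p = 9.2e-162, exact test). Mir1291, in human derived from a snoRNA, was at 61.4 and 257.1 CPM, a log2 ratio of 2.10 (adjusted p = 8.1e-73, exact test). Mir664, likewise snoRNA-derived in human, was at 131.7 and 124.4 CPM, a log2 ratio of -0.04 that missed the threshold (adjusted p = 0.785, exact test). The tRNA-like Mir1983 was at 28.6 and 13.5 CPM, a log2 ratio of -1.03 (adjusted p = 0.00111, exact test). Mir451a, which needs Drosha but not Dicer and is matured by Ago2, was at 740 and 349 CPM, a log2 ratio of -1.05 (adjusted p = 3.8e-71, exact test), and is listed at 0 in the column that ignores strand. Of these 5 genes, 4 were called, against 62.7% of all tested genes.

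The miRNA genes nearest to each member in log2(CPM + 1) over the 2 libraries were mostly genes of like level, since 2 libraries hold little more than a level. Mir30e and Mir322 were nearest to Mir320, at distances of 0.23 and 0.36. Mir203 and Mir431 were nearest to Mir484, at 0.17 and 0.29. Mir130b and Mir664 were nearest to Mir877, at 0.14 and 0.17. Mir365-2 and Mir1188 were nearest to Mir702, at 0.13 and 0.16, and Mir365-2 shares 18 bases of a mature arm with Mir365-1, so its count is uncertain. Mir1947 and Mir3107 were nearest to Mir1224, at 0.09 and 0.13, each with 12 or 13 counts a library. Mir3107 had no mature arm among the RefSeq sequences, so whether it shares sequence with other hairpins was not tested.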

How the data were processed

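The deposited tables hold raw read counts per miRNA gene of 1 library each, in a column with strand ignored and 2 stranded columns, on mm10 with GENCODE M21 per the deposited notes. The aligner, the counter and the trimming of adapters were not given in the sources used here. The stranded column with the larger total was read as the own strand. Rows that name no gene (unmapped, aligned to several places, no feature, ambiguous) held 73.6% of the reads of replicate 1 and 67.2% of replicate 2 and entered neither library sizes nor tests. How reads with CAST/EiJ alleles align to this C57BL/6J build was not tested.

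Gene symbols, positions and introns came from GENCODE M21 (all 2202 identifiers matched), and sequences from RefSeq. TMM factors (edgeR 4.0.16), from genes with a summed count of at least 20, were 1.01 and 0.987. The prior count of log2 ratios was 0.5. A single group leaves no residual degrees of freedom for edgeR's quasi-likelihood test between libraries. Hairpins were folded with RNAfold 2.7.2. The exact test was tested on simulated data with 200 changed genes. These data were drawn with counting error alone, so they do not show how the test behaves where replicates differ by more. Alternatives were DESeq2 1.42.0 size factors, total counts, other filters, strand ignored and a prior count of 5. The 5 genes, the lists and the tests were chosen with earlier results of these data known. Named genes are the 5, 5 other described non-canonical genes, the highest 8 other genes by intron geometry and the 2 nearest genes of each member.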

Additional observations from a re-analysis of the deposited data

How the results depend on the processing

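Among the settings, the prior count does not enter the p-value, and the low-count filters leave the log2 ratio unchanged. Each of these could move only part of a result, and they are counted below with the rest. Of 33 recomputed log2 ratios of the 5 genes, 31 kept their direction and their side of the threshold, and no result reversed. The exceptions were Mir877 with DESeq2 size factors (-0.29, adjusted p = 0.0285, exact test) and with TMM factors from all genes, a setting added after seeing the data (-0.33, adjusted p = 0.0116), within a range of adjusted p from 0.0116 to 0.268. The number of the 5 genes called was 3 and ranged from 2 to 4, being 2 with a minimum summed count of 200, which leaves out Mir702 and Mir1224, so these have no value there. Over all reads of the tables instead of gene counts, means were 1891 for Mir320, 399 for Mir484, 35.2 for Mir877, 11.2 for Mir702 and 1.61 for Mir1224 per 1000000 reads. With strand ignored, the means of all 5 genes rose, since the total of gene counts is then smaller. Mir484, at 1536 CPM, and Mir877, at 139 CPM, moved by more than their SD over the 2 libraries. Mir320, at 7242 CPM, Mir702, at 42.2 CPM, and Mir1224, at 6.17 CPM, moved by less. Leaving out replicate 1 or 2 leaves a single library. The ratio of capped hairpins to the 3 chosen mirtrons was then 52.5 or 41.6, beside a mean of 47.0. No paired analysis was possible because there is a single group. Mir1224, with 12 and 14 counts, is limited by depth.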

Other observations

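A looser geometry, with 1 hairpin end within 10 bases of an end of an intron of at most 400 bases, held for 102 further genes, of which 6 were detected, or 5.88% where 15.4% of all genes were. Mir382, Mir668 and Mir369 on chromosome 12 met it through introns of the noncoding gene Mirg, with means of 3335 ± 183, 421 ± 22.9 and 251 ± 59.1 CPM (SD, n = 2 each). Mir5121, in an intron of the ribosomal protein gene Rpl13a, had 147 and 104 counts, and Mir5132, in an intron of the kinase gene Irak1, had 25 and 38 counts. The last of the 6, Mir7069 in an intron of the tRNA synthetase gene Farsa, lies outside the rule for named genes and is given for completeness, at 12 and 23 counts and higher in replicate 2 (log2 ratio 1.13, adjusted p = 0.0433, exact test). The match is one of annotation and does not show how these hairpins are cut.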
